A study of Danio rerio with 31 samples.

Results

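The cytosolic ribosomal proteins were followed through 105 array probes of 77 zebrafish genes, out of 43603 probes on the array. The members were all probes lying well above background whose gene symbol begins with rps, rpl or rplp and a number, without the rps6k kinases. Of them, 44 probes of 33 genes belong to the small subunit and 61 probes of 44 genes to the large subunit, and 23 genes have more than 1 probe. All 105 matched probes passed the detection filter, so none was lost to low signal.

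A ribosome is built from ribosomal RNA and many ribosomal proteins, which are assembled in the nucleolus by a separate set of biogenesis factors. The ribosomal protein mRNAs of vertebrates begin with a tract of pyrimidines, through which the mTOR pathway controls their translation, so the level of an mRNA and the output of its protein can part. They are among the most abundant mRNAs of animal cells, and several serve as reference genes in expression studies.

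The arrays measured pooled whole wild-type larvae of the AB strain. The larvae were raised in a light/dark (LD) cycle, and from 5 days post-fertilization (dpf) 12 samples were taken in LD and 12 in constant darkness (DD), 1 array each, every 4 h from ZT0 to ZT44, where ZT0 is the first lights-on. A further 7 arrays hold embryos at 48 and 50 hours post-fertilization (hpf), of which 3 are labelled *mitfa* morphant, 2 control morphant and 2 wild type (WT). The morpholinos (MO) were injected into early embryos. The *mitfa* MO was designed against the start codon, so it was meant to block translation rather than to remove the mRNA, and the control MO was a standard control. Whole bodies mix all tissues, and in such samples fewer cells of a type and less RNA per cell cannot be told apart. Each array is 1 pool, so the p-values measure the spread between these arrays, part of which may be technical. The LD arrays lie on 3 slides and the DD arrays on 3 others that were scanned on another day, each slide holding 4 successive time points.

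Between 75.2% and 92.0% of the spots of a time-course array lay well above background, against 71.3% to 75.3% on the arrays at 48 and 50 hpf. All markers that could be matched for muscle, lens, liver, pancreas, neurons, photoreceptors, intestine, skin, blood, pigment cells and dividing cells, 27 genes of 38 sought were detected in the time course. The ribosomal protein probes lay at the top of the scanner's range. Their median log2 value was 18.44, against 9.15 for all 35412 detected probes, and 89 of the 105 were among the 500 brightest. On at least 1 time-course array, 72 members reached 50% of the scanner ceiling, which 244 probes did in all, and on each of these arrays 15 to 29 members lay above 90% of it. The scanner software marked no spot as saturated. After quantile normalization *rps2*, a small-subunit protein near the mRNA entry channel, read from 19.58 to 19.61 on the 24 arrays. Its SD was 0.01 in LD and 0.01 in DD. Quantile normalization gives the top ranks of all arrays the same values, so this narrow range cannot tell whether the scanner limited the probe. The remaining 33 probes, of 26 genes, stayed under 50% of the ceiling throughout, and results are given for them separately. At 48 and 50 hpf no member passed 90% of the ceiling, and the brightest spot reached 54.3%.

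The median of the ribosomal protein probes was higher on the second day than on the first in both conditions. The median member, taken as the log2 value minus the mean of that probe over the 24 arrays, lay between -0.11 and -0.04 on the 6 LD arrays of the first day (ZT0 to ZT20) and between 0.01 and 0.05 on the 6 of the second (ZT24 to ZT44). In DD it lay between -0.04 and 0.00 on the first day and between 0.01 and 0.09 on the second. Within each condition the days did not overlap. The 33 probes under 50% of the ceiling moved further, from a range of -0.28 to -0.10 to a range of 0.01 to 0.12 in LD. In DD their median ranged from -0.15 to 0.12 on the first day and from 0.09 to 0.29 on the second, so there the days overlapped.

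**Figure D1:**
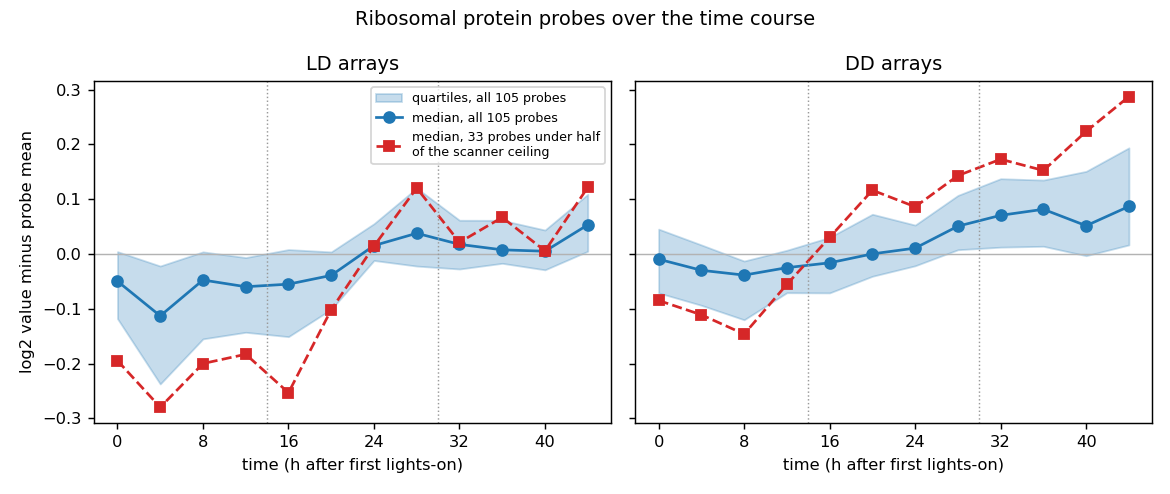
Median log2 value minus probe mean (y axis) of the ribosomal protein probes against time in hours after the first lights-on (x axis), 1 array per point, with LD on the left and DD on the right; the band is the quartiles of the 105 probes, the red squares are the median of the 33 probes under 50% of the scanner ceiling, and dotted lines mark where one slide ends and the next begins. The LD median goes from -0.11 at ZT4 to 0.05 at ZT44 and the DD median from -0.04 at ZT8 to 0.09 at ZT44.

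Most members followed this common course, but not all did. The Pearson correlation of a probe with the median of the other members over the 12 arrays of a condition had a median of 0.62 in LD and ranged from -0.68 to 0.96. In DD the median was 0.63, with a range of -0.63 to 0.95. It exceeded 0.5 for 67 probes in LD and 65 in DD, and it was below 0 for 14 and 13. These points share their arrays and normalization, so the correlations are descriptive. The 48-h period of the power spectrum is the full length of the course, so a change between the days also falls on it. In the LD arrays this period was the strongest for 59 members, or 56.2%, against 48.6% of the other probes. In DD it was the strongest for 78 members, or 74.3%, against 49.7%. The 24-h period led for 17 members in LD (16.2% against 38.8% of the other probes) and for 8 in DD (7.62% against 32.3%).

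Whether ribosomal protein mRNAs oscillate with the day was asked with Fisher's g test. A probe was called when 24 h was the dominant period and the g-test p-value lay below 0.5 in both LD and DD. Of all detected probes 12.7% were called, and of the members 2, both for *rpl7l1*. Its product is related to Rlp7, which in yeast is an assembly factor of the large subunit and not a part of the mature ribosome. On its brighter probe the values ran from 13.73 to 14.76 in LD with a median of 14.08, and from 13.70 to 14.59 in DD with a median of 14.10. On its other probe they ran from 13.44 to 14.56 in LD with a median of 14.03, and from 13.67 to 14.27 in DD with a median of 13.94. Both probes were high around lights-on, at ZT0 and ZT24 in LD, and low from ZT8 to ZT16. The fitted amplitude was 0.30 in LD and 0.28 in DD for the first probe, and 0.32 and 0.26 for the second. The fitted peaks lay at 0.16 h (LD) and 2.39 h (DD) for the first and at 23.7 h and 0.95 h for the second.

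With the stricter limit of 0.15 on the g-test p-value in a single condition, 5 members were called in LD, against 16.8% of all probes. They were *rps20*, 2 of the 4 probes of *rpl4*, 1 of *rpl7l1* and 1 of *rpl31*, and the largest LD amplitude among them was that of *rpl31*, with 0.38. The *rps20* probe, of a protein in the head of the small subunit, ranged only from 18.87 to 18.99 in LD, with an amplitude of 0.04. In DD 3 members were called, against 10% of all probes, namely *rps13* and both *rpl7l1* probes. By limma's F test of a 24-h cosine, 0 members passed in LD, in DD or in both, against 5.93%, 2.02% and 1.58% of all probes. Of the 33 probes under 50% of the scanner ceiling, the g test called 2 in both conditions, 3 in LD and 2 in DD, while it called 12.8%, 16.9% and 10.04% of the other probes under that limit. A test for a different rhythm in LD than in DD called 0 members and 0 probes, and 0 members at an unadjusted p under 0.05 (limma), while 3.36% of all probes lay under that value. Without the first 24 h 13 members (12.4%) were called in both conditions, against 29.7% of all probes, and without the second 9 (8.57%) against 18.3%.

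The ribosomal protein mRNAs were higher on the second day than on the first. Each array was compared with the array of the same condition taken 24 h before, which gives 12 pairs. Of the 105 probes 44, of 38 genes, rose and 0 fell, against 23.5% of all probes that rose and 20.6% that fell (limma, adjusted p under 5%). At an unadjusted p under 0.05 the counts were 54 and 0, against 27.8% and 23.8% of all probes. The change was positive in 95 of 105 members, as in 53.6% of all probes, and its median was 0.10 against 0.03, with a range from -0.05 to 0.45. In 21 members all 12 pairs rose, but the share of all probes in which they did was not counted. In no member, however, did the values of the days lie apart over all 24 arrays, and for this too the share of all probes was not counted. Of the small-subunit probes 14 of 44 rose, with a median of 0.05, and of the large-subunit probes 30 of 61, with a median of 0.13.

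The largest rise was that of *rpl10a*, a protein of the L1 stalk of the large subunit, where used transfer RNA leaves. Its 12 first-day arrays read 16.46 to 17.16 with a median of 16.71, and its 12 second-day arrays read 16.83 to 17.58 with a median of 17.20. The values went up, with small drops between, from 16.46 at ZT0 to 17.25 at ZT44 in LD and from 16.67 to 17.52 in DD, and the range of the first day overlapped that of the second. The difference was 0.45 ± 0.04 (SE, adjusted p = 4.16e-06 by limma), which is 1.37-fold, and it was higher in 12 of 12 pairs.

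*rps28*, a small-subunit protein at the mRNA exit, read 12.82 to 13.34 on the first day with a median of 13.15 and 13.25 to 14.07 on the second with a median of 13.48. It rose by 0.42 ± 0.07 on the log2 scale (adjusted p = 2.71e-04), or 1.34-fold, in 12 of 12 pairs. The highest of its values was that of DD at ZT32. *rpl28*, of the large subunit, rose by 0.35 ± 0.07 (adjusted p = 9.42e-04) from a median of 16.06 to one of 16.51, in 11 of 12 pairs. *rps8b*, a small-subunit paralog with the lowest signal of the members, went from a median of 7.92 to 8.13, a rise of 0.32 ± 0.09 (adjusted p = 0.0101) in 10 of 12 pairs. This last call was lost with slide as a random block (adjusted p = 0.0737).

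In the stalk that recruits elongation factors, *rplp1* ranged from 15.33 to 16.12 on the first day with a median of 15.68 and from 15.80 to 16.23 on the second with a median of 16.01. It rose by 0.33 ± 0.07 (adjusted p = 0.00194), in 12 of 12 pairs. For *rplp2* the rise was 0.10 ± 0.04 (adjusted p = 0.0435), and for the base of the stalk, *rplp0*, the difference was 0.02 ± 0.03 (adjusted p = 0.737). The *rplp0* probe reached 91.3% of the scanner ceiling and the *rplp1* probe 12.3%, and neither the difference between these genes nor the part of the ceiling in it was tested.

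Of the proteins that bind the 5S ribosomal RNA, which in mammals hold the p53 regulator Mdm2 when ribosome assembly fails, *rpl5a* rose by 0.10 ± 0.03 (adjusted p = 0.0233) and *rpl5b* by 0.18 ± 0.04 (adjusted p = 0.0039). The difference for *rpl11* was 0.01 ± 0.03 (adjusted p = 0.911), on a probe that reached the ceiling. *rps6*, the target of the S6 kinases, rose by 0.11 ± 0.04 (adjusted p = 0.0218) in 12 of 12 pairs. *rps19*, which is mutated in human Diamond-Blackfan anaemia, was higher in 12 of 12 pairs but its difference of 0.08 ± 0.03 missed the limit (adjusted p = 0.0718). *rps3*, at the mRNA entry site, differed by 0.10 ± 0.04 (adjusted p = 0.0631), and *rps27a*, made as a fusion with ubiquitin, by 0.04 ± 0.03 (adjusted p = 0.316).

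Among paralogs and near relatives, *rpl22* rose by 0.17 ± 0.04 (adjusted p = 0.00418), whereas its paralog *rpl22l1* differed by 0.02 ± 0.05 and 0.09 ± 0.04 on its probes, neither past the limit. Whether *rpl22* and *rpl22l1* differ from each other was not tested. *rpl7* differed by 0.08 ± 0.04 (adjusted p = 0.101). The probe of *rps27.1* differed by 0.04 and those of *rps27.2* by 0.01 and -0.02, all short of the limit. The 2 probes of *rps15a* rose by 0.12 and 0.13, and of the 2 of *rps15* the dimmer one rose by 0.11 (adjusted p = 0.0413) while the brighter, at the ceiling, read 0.00. *rpl3* (0.08), *rpl39* (-0.01) and the brightest probe of *rpl36* (0.09) did not pass the test either. *rpl36* has 3 probes, however, and its dimmest one differed by 0.31.

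**Figure D2:**
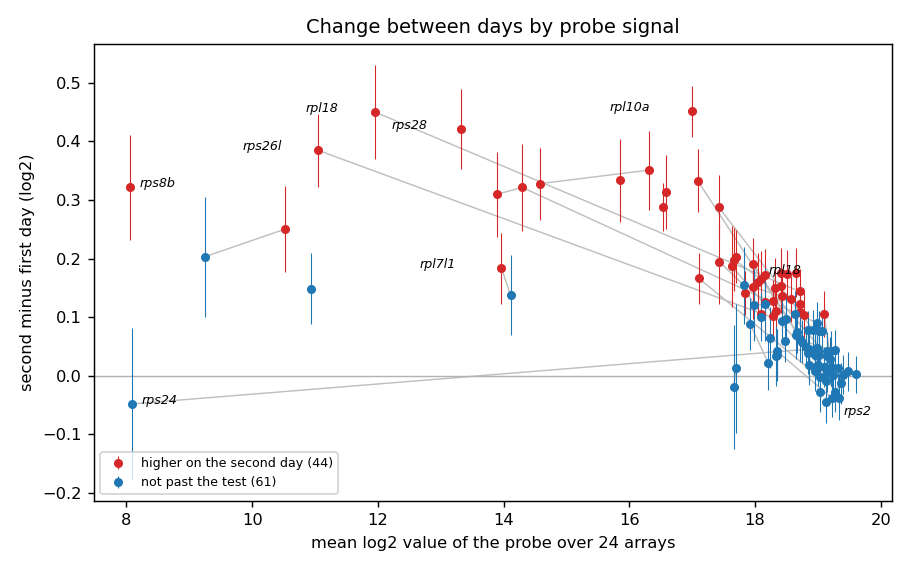
Second minus first day on the log2 scale (y axis, bars are the SE of the limma fit) for each of the 105 ribosomal protein probes against its mean log2 value over the 24 arrays (x axis); red points rose past an adjusted p of 5%, and grey lines join probes of one gene. Changes lie near 0 for most probes above a log2 value of 19 and reach 0.45 for *rpl10a* and the dimmer *rpl18* probe.

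The size of the change between days went with the brightness of the probe. Of the 33 probes under 50% of the ceiling 25 rose, or 75.8%, with a median of 0.20, and of the 72 that reached it 19 rose, or 26.4%, with a median of 0.05. Among the other probes of the array, 23.5% of those under that limit rose, and 24 of the 172 that reached it. The 4 members with a mean log2 value from 16 to 17 all rose, with a median of 0.33, while of the 26 members above 19 only 1 rose, and their median was 0.01. The same was seen within genes, since in 18 of the 23 genes with several probes the dimmest probe had a higher difference than the brightest.

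*rpl19* read -0.04 on its bright probe and 0.33 on its dim one. For *rpl18* these values were 0.14 and 0.45, and for *rps26l* 0.09 and 0.38. The common reference genes did the same, with -0.00 and 0.17 for *rpl8* and 0.02 and 0.19 for *rps18*, the second value of each past the limit. *rpl13a*, another common reference gene, has 1 probe, which differed by 0.04 ± 0.04 (adjusted p = 0.45). Exceptions were *rps24*, whose dim probe read -0.05 against 0.05, and *rpl28*, whose dim probe read 0.33 against 0.35. The others were *rpl31* (0.20 on the dim probe against 0.25), *rps14* (-0.03 against 0.01) and *rps27.2* (-0.02 against 0.01). The difference between probes of 1 gene was not tested.

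Normalization mattered for the bright probes. When each array was scaled to its 75th percentile instead of quantile normalized, 99 of 105 members rose, against 20.6% of all probes, and the median change was 0.29. The 72 bright members then had a median of 0.28, but the 172 other probes that reached 50% of the ceiling had a median of 0.24 and 136 of them were higher. For the 33 probes under that limit the median was 0.20 by quantile normalization and 0.32 by the 75th percentile. With the slide as a random block 26 members rose, or 24.8%, against 16.6% of all probes.

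**Figure D3:**
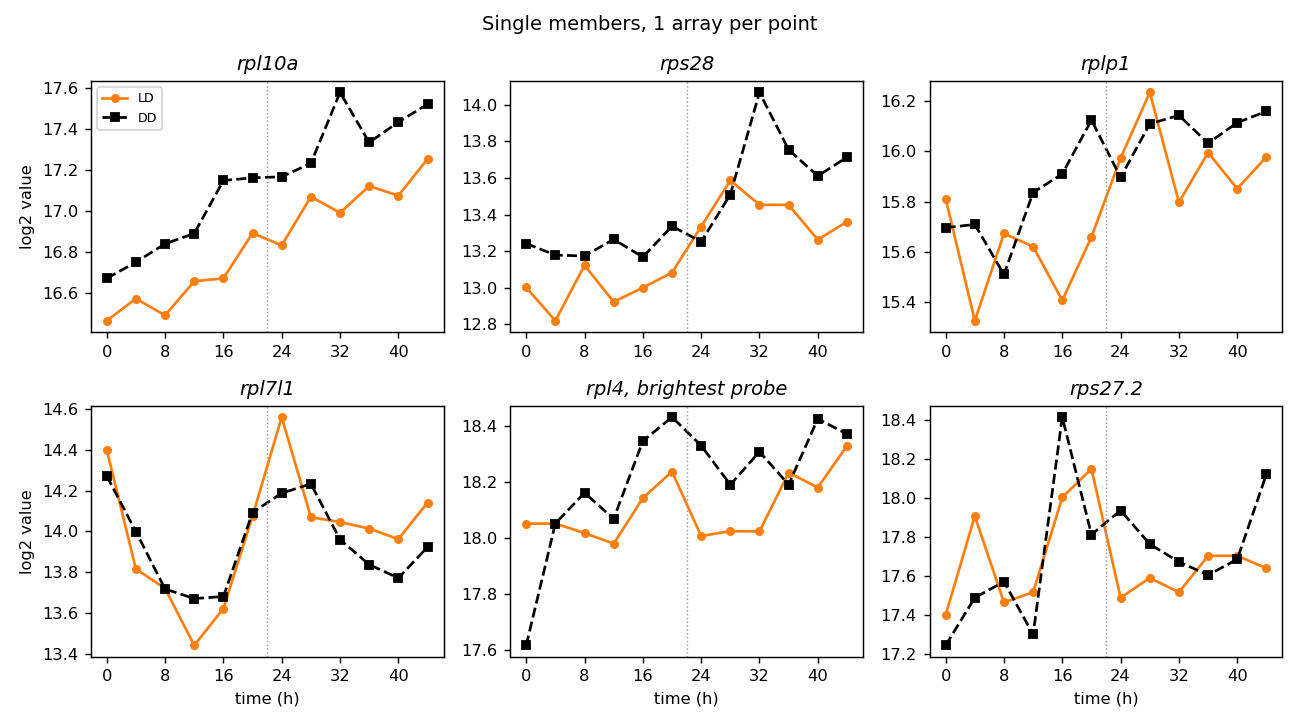
Log2 value (y axis) of 6 members against time in hours after the first lights-on (x axis) in LD (orange circles) and DD (black squares), 1 array per point; the dotted line separates the days, and *rpl7l1* is shown by its dimmer probe. *rpl10a* climbs from 16.46 to 17.25 in LD and from 16.67 to 17.52 in DD, *rpl7l1* is highest around ZT0 and ZT24, and *rps27.2* reaches 18.41 at ZT16 in DD.

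Calls of a rise were also made in each condition on its own. In LD alone 25 members rose, or 23.8%, against 18.5% of all probes. In DD alone 15 rose, or 14.3%, which is near the 12.3% of all probes. In either condition 0 members were lower, against 17.2% of all probes in LD and 12.2% in DD. At an unadjusted p under 0.05 the counts of members that rose were 38 in LD and 32 in DD (limma). The change was positive for 87 members in LD, for 92 in DD and for 80 in both, while 41.9% of all probes were positive in both. For *rpl10a* it was 0.43 in LD and 0.47 in DD. The test of a different change in LD than in DD called 0 members, against 0.0141% of all probes with the larger rise in LD and 0.00282% with the smaller. At an unadjusted p under 0.05 it found 1 member, the brighter *rpl7l1* probe, whose change was 0.30 larger in LD (unadjusted p = 0.0187). Of all probes 4.67% lay under that value with the larger rise in LD.

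**Figure D4:**
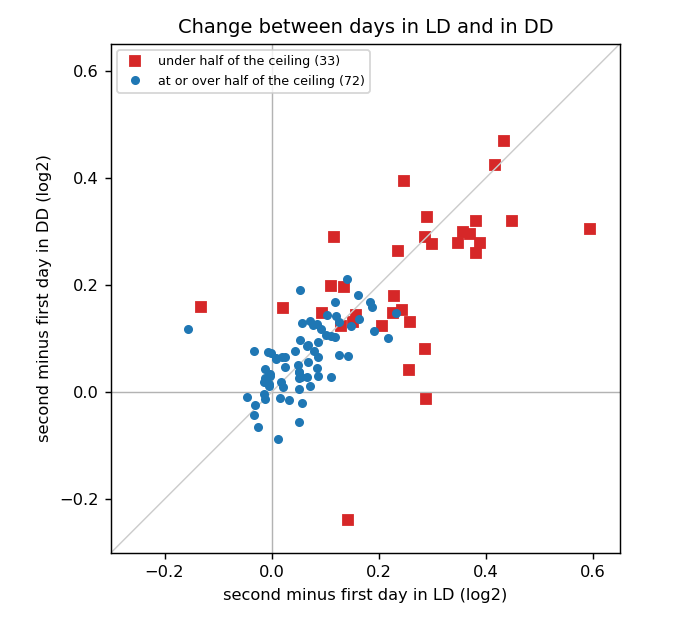
Second minus first day on the log2 scale in DD (y axis) against that in LD (x axis) for the 105 ribosomal protein probes, with squares for the 33 probes under 50% of the scanner ceiling and a grey line of equality. Of the probes, 80 lie above 0 in both conditions.

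The days were sampled on different slides except at ZT16 to ZT28, which share 1 slide per condition. On that slide the values at ZT24 and ZT28 were set against those at ZT16 and ZT20, which are also other hours of the day. In LD 81 of 105 members were higher, with a median of 0.08, and of the 33 probes under 50% of the ceiling 26 were higher, with a median of 0.30. In DD 76 of 105 members were higher, with a median of 0.04, but only 17 of the 33 dimmer probes, with a median of 0.03. The share of all probes that were higher in this comparison was not counted, so these counts describe the members only.

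Most ribosomal protein probes read slightly lower in LD than in DD. With the sampling time as a block, 15 probes of 15 genes were lower in LD and 0 higher, against 9.88% of all probes that were lower and 7.36% that were higher (limma, adjusted p under 5%). At an unadjusted p under 0.05 the counts were 26 and 0, against 16.8% and 14.3% of all probes. The difference was negative in 80 of 105 members, as in 49.7% of all probes, and its median was -0.03 against 0.00. LD and DD lay on separate slides with separate scans, so condition and slide cannot be told apart. At ZT0 the difference of the medians was -0.04, and that of the 33 dimmer probes -0.11, from a single array per condition. Both values lay within the range of the other sampling times, and whether light had a part in the difference was not tested. The gap of these 33 kept its sign at all 12 sampling times, from -0.02 at ZT28 to -0.28 at ZT16. That of all 105 members ran from -0.08 at ZT4 to 0.005 at ZT24, the only time at which it was positive.

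Among the genes that were lower in LD, *rps8b* read 7.46 to 8.30 in LD with a median of 7.92, and 7.74 to 8.64 in DD with a median of 8.19. Its difference was -0.34 ± 0.08 (adjusted p = 0.0124), or 0.791-fold, with 11 of 12 sampling times lower. *rpl10a* read 16.46 to 17.25 in LD with a median of 16.86, and 16.67 to 17.58 in DD with a median of 17.16. It was lower in LD at 12 of 12 times, by -0.30 ± 0.05 (adjusted p = 7.17e-04). The ranges of LD and DD overlapped for both genes.

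*rps28* differed by -0.24 ± 0.06 (adjusted p = 0.0157), *rps10*, a protein of the head of the small subunit, by -0.23 ± 0.06 (adjusted p = 0.0202) and *rpl9*, near the base of the stalk, by -0.14 ± 0.04 (adjusted p = 0.0329). *rpl5a* was lower in 12 of 12 times, by -0.13 ± 0.04 (adjusted p = 0.0232). It was the only called member among the 72 that reached 50% of the ceiling, while 14 of the 33 under it were called, or 42.4%, with a median difference of -0.13. Of the other probes under that limit 9.89% were lower. The *rpl9* call was lost with the slide as a random block (adjusted p = 0.0676) and in 8 of the 12 fits that left out 1 sampling time. With the slide as a random block 8 members were called, or 7.62%, which is near the 7.33% of all probes. With only the brightest probe of each gene the count was 8 of 77, or 10.4%, near the 10.8% of all probes. Without the block for sampling time 1 was called (2.42% of all probes), and with 75th-percentile scaling 38 (7.69% of all probes). The count was also 8 without ZT4 or without ZT20, and 9 without ZT12. With 75th-percentile scaling the bright probes of the array shifted alike. The median difference was -0.12 for the 72 members that reached 50% of the ceiling and -0.10 for the 172 other probes that did. Under that limit it was -0.18 for the 33 members and 0.04 for the other probes.

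*rpl4*, a large-subunit protein that lines the exit tunnel, was read by 4 probes, which differed among themselves. Its dimmest probe (A_15_P100220) ranged from 16.92 to 17.65 in LD with a median of 17.17 and from 17.43 to 17.83 in DD with a median of 17.61. It was lower in LD at 12 of 12 times, by -0.39 ± 0.05 (adjusted p = 2.39e-04). The other 3 probes differed by -0.10, -0.11 and -0.13, with adjusted p-values from 0.151 to 0.286. These 3 probes shared a low value at ZT0 in DD (17.62, 17.55 and 17.32) and a high one at ZT20 in DD (18.43, 18.28 and 18.14), which the dimmest probe did not have. Its values at those times were 17.60 and 17.51.

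The 2 probes of *rps27.2*, a small-subunit zinc-finger protein with a paralog in *rps27.1*, varied widely and together without a call in any of these comparisons. Their SDs over the 12 arrays were 0.23 and 0.21 in LD and 0.33 and 0.30 in DD, where the median member had 0.08 and 0.09. The highest values were 18.41 and 18.39, at ZT16 in DD. The lowest in DD were 17.24 and 17.34, at ZT0, and in LD both probes were highest at ZT20, with 18.15 and 18.06. The *rps27.1* probe, which reached the scanner ceiling, had SDs of 0.04 in LD and 0.03 in DD.

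Other parts of the translation machinery were set beside the ribosomal proteins by counts only, without a test between lists. Of 79 probes for ribosome biogenesis factors 54 rose on the second day and 2 fell, with a median of 0.35. The largest changes were those of *rcl1* (0.91), *rrp12* (0.85) and *utp4* (0.82), all factors for processing or export of the pre-ribosome. Of these probes 34 oscillated in LD and DD, or 43.0%. Of 74 probes for translation factors 28 rose and 10 fell, with a median of 0.08. The largest changes were falls, those of the helicase *eif4a1a* (-0.88), the cap-binding *eif4eb* (-0.70) and *eif4h* (-0.62). Of 78 probes for mitochondrial ribosomal proteins 11 rose and 27 fell, with a median of -0.09, and 44 oscillated in both conditions, or 56.4%. The *mrpl16* probe fell by 0.51 and the *mrps11* probe rose by 0.47.

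Markers of dividing cells moved the other way from the members. All 5 detected, of 7 sought, fell on the second day, with a median of -1.25, and their summed signal was 89490 to 169167 on the first day and 69306 to 140372 on the second. One marker each of liver (of 1 detected), muscle (of 3), lens (of 3), pancreas (of 2) and neurons (of 3) rose, while 2 of 3 pigment cell markers, the 1 blood marker and 1 of 2 each of photoreceptors, intestine and skin fell. Whether these marker changes reflect tissue makeup, and whether makeup had a part in the rise of the ribosomal proteins, was not tested. Between LD and DD, only 1 of the 27 markers differed, a pigment cell gene that was lower in LD.

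At 48 and 50 hpf the gene named in the morpholino labels was checked first. On its brightest probe *mitfa*, the master regulator of the melanocyte lineage, read 11.95, 11.57 and 11.45 on the 3 arrays labelled *mitfa* morphant. It read 8.46 and 7.93 on the control morphant arrays and 8.47 and 7.83 on the WT arrays. The groups lay far apart, with the arrays labelled *mitfa* morphant 3.48 ± 0.21 higher (adjusted p = 0.00128), and the other 2 probes gave 3.48 and 3.46. A knockdown by blocked translation need not lower the mRNA, but a higher level goes against reading these labels as a loss of it, and every direction below rests on the labels. The melanin synthesis gene *tyrp1b* differed by -1.03 ± 0.17 on these arrays (adjusted p = 0.0473), and *dct* by -0.80 ± 0.15 without passing the limit (adjusted p = 0.0532).

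Few ribosomal protein probes differed between the arrays labelled *mitfa* morphant and the others. Against the 4 control morphant and WT arrays 1 probe was higher and 0 lower, against 0.757% and 0.443% of all 30507 detected probes (limma). At an unadjusted p under 0.05 the counts were 7 and 2, against 11.3% and 11.2% of all probes. The median difference was 0.04, against 0.01 for all probes. The 3 arrays lay apart from the other 4 in 35 of 105 members, 21 of them higher, while this held for 22.9% of all probes.

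The called probe was one of *rpl7l1* (A_15_P173761). It read 12.92, 13.03 and 12.94 on the arrays labelled *mitfa* morphant, 12.27 and 12.38 on the control morphant arrays and 12.42 and 12.42 on the WT arrays. All 3 lay above all 4 others, by 0.59 ± 0.10 (adjusted p = 0.0487). The second probe read 13.10, 13.26 and 13.27 against 12.76, 12.58, 12.75 and 12.68, also apart, but its difference of 0.52 ± 0.11 missed the limit (adjusted p = 0.0565). The call is marginal, since it was lost in all 7 fits that left out 1 array, with 75th-percentile scaling (adjusted p = 0.0506) and with age as a block (adjusted p = 0.0675). Of the 79 probes for biogenesis factors, which the *rpl7l1* product resembles in role, 15 were higher on these arrays and 0 lower, with a median of 0.61. The paralog *rpl7* differed by -0.02 ± 0.10.

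The largest difference downward was that of *rpl22l1*, which with *rpl22* has opposing roles in zebrafish blood development. Its brighter probe read 14.39, 14.47 and 14.50 on the arrays labelled *mitfa* morphant, 14.86 and 15.24 on the control morphant arrays and 15.99 and 15.79 on the WT arrays. The 3 groups thus lay apart in this order, with WT highest. The difference of -1.02 ± 0.26 did not pass the limit (adjusted p = 0.0787), nor did that of the other probe, -0.98 ± 0.26 (adjusted p = 0.086). Against the WT arrays alone both probes passed, at -1.44 (adjusted p = 0.034) and -1.40 (adjusted p = 0.0389), a comparison that joins the effect of the morpholino with that of injection. *rpl22* itself differed by 0.20 ± 0.10 (adjusted p = 0.292). *rpl37*, of the large subunit, read 9.50, 9.43 and 9.73 against 9.08, 8.96, 9.18 and 9.16, a difference of 0.46 ± 0.12 (adjusted p = 0.0844). By the brightest probe of each gene, the other values among the 3 largest in each direction were 0.39 for *rps27.2* upward and -0.28 for *rps18* and -0.25 for *rpl23a* downward, none past the limit.

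**Figure D5:**
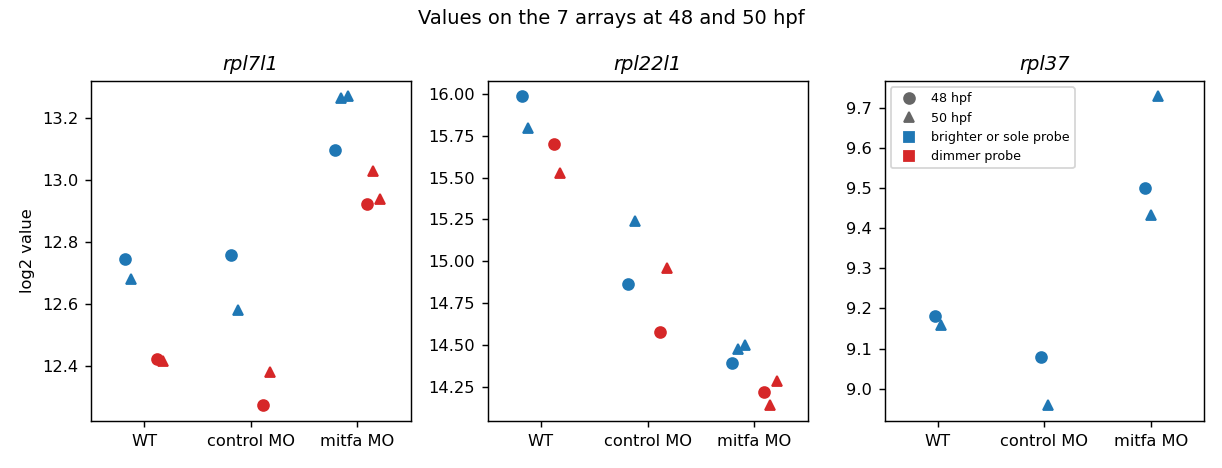
Log2 value (y axis) of *rpl7l1*, *rpl22l1* and *rpl37* on the 7 arrays at 48 hpf (circles) and 50 hpf (triangles), by label (x axis: WT, control MO and arrays labelled *mitfa* MO), with the brighter or only probe in blue and the dimmer in red. The arrays labelled *mitfa* MO lie above the 4 others for *rpl7l1* and *rpl37* and below them for *rpl22l1*, whose WT arrays are highest.

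Between control morphant and WT arrays, 2 of each and with age as a block, 0 members differed in either direction, against 0% of all probes (limma). At an unadjusted p under 0.05 there was 1 higher and 5 lower, against 8.98% and 7.01% of all probes. The members read lower in control morphants in 75 of 105 cases, as did 49.6% of all probes, with a median of -0.07 against 0.00. That median was -0.27 with 75th-percentile scaling, and as near to 0 as -0.03 without WT replicate 1. By the brightest probe of each gene, the largest differences were those of *rpl22l1* (-0.84 ± 0.16, adjusted p = 0.209), *rps27.2* (-0.59 ± 0.28) and *rps8b* (-0.54 ± 0.17) downward and *rpl4* (0.34), *rplp1* (0.22 ± 0.13) and *rpl11* (0.21 ± 0.12) upward.

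Between 50 and 48 hpf, 0 members were called in either direction, against 0.00328% of all probes that were higher and 0.0951% that were lower (limma). At an unadjusted p under 0.05 there were 1 and 2, against 5.69% and 7.37% of all probes. The 2 ages lay on separate slides, so age and slide cannot be told apart, and the median difference was 0.01. By the brightest probe of each gene, the largest values included those of *rps27.2* (0.39), *rps10* (0.24) and *rps28* (0.20) upward and *rps3* (-0.15) and *rpl6* (-0.14) downward. *rps27.2* was again among the widest in range, reading 14.54 to 15.79 on its brighter probe over the 7 arrays.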

How the data were processed

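The 31 arrays are 1-colour Agilent zebrafish arrays. The intensity values deposited are processed signals that, per the file headers, were background-subtracted and detrended within each array. The submitters' processing notes name Feature Extraction 10.5.1, whereas those headers name 10.7.3.1. The deposited log2 values were quantile normalized by the authors, separately for 24 and 7 arrays. Here log2 of the signals was taken without outlier spots, averaged over the spots of each probe and quantile normalized within each set, after which it correlated with the deposited values at r of at least 0.9999. Quantile normalization gives all arrays of a set the same distribution, so the brightest ranks can hardly move. Probes well above background on 75% of the arrays of a set were kept. Gene symbols came from RefSeq (GRCz12tu) through the accession of 16624 probes (11482 genes), and 26979 were unnamed. No sequences are shown.

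Fisher's g test was used for rhythms and limma 3.58.1 in R 4.3.3 for differences. P-values were adjusted by Benjamini-Hochberg across every detected probe, with a limit of 5%. The number of arrays limits the precision. A change given as ± carries its SE. Groups came from the labels. The genes named were the 5 called members with the largest difference in each direction (the 3 largest where none was called), read by their brightest probe, and members with known roles or paralogs. Probes of *rpl18*, *rpl19*, *rps14*, *rps24*, *rps26l*, *rpl4*, *rps2* and the second probes of *rpl7l1* and *rpl31* were added after their values were seen. The members and lists were chosen with earlier results of these data known. The code was tested on simulated data. Alternatives were 75th-percentile scaling, normexp with an offset of 50 (on median spot signals), the deposited values, other detection filters, the brightest probe of a gene, the limma F test, a straight line removed, single 24-h cycles, slide or age as a block, single controls, the methods' t-test and each array, time or pair left out. Restriction to probes under 50% of the scanner ceiling was chosen after seeing the data. Tables were made in Python 3.11.15 with pandas 2.3.3. Some results that the rule for named genes covers are not reported here.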

Additional observations from a re-analysis of the deposited data

How the results depend on the processing

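Members that oscillated in LD and DD numbered 2, against 1 with the brightest probe of a gene and 0 by the limma F test. They were 13 (12.4%, against 29.7% of all probes) without the first 24-h cycle and 9 (8.57%, against 18.3%) without the second. In a single cycle 24 h is the longest period tested. In LD the 5 calls became 3 with 75th-percentile scaling, 3 with the brightest probe and 0 by the F test. Without the first cycle 17 were called in LD, or 16.2%, near the 17.6% of all probes. In DD the 3 became 0 by the F test. Without the first cycle 6 were called in DD, or 5.71%, against 17.9% of all probes. Without the second they were 12, or 11.4%, near the 12.3% of all probes. The 15 members lower in LD became 38 with 75th-percentile scaling, 1 without a time term and 8 with the slide as a random block. With the brightest probe they were 8 of 77, or 10.4%, against 10.8% of all probes. With each sampling time left out they were 8 to 15 (8 without ZT4, 8 without ZT20 and 9 without ZT12). The 44 members higher on the second day became 99 with 75th-percentile scaling, 29 with the brightest probe and 26 with the slide block, 25 among probes under 50% of the scanner ceiling and 28 there with 75th-percentile scaling, and 34 to 49 with each pair left out. The member higher on the arrays labelled *mitfa* morphant was lost (0 members) with 75th-percentile scaling, no detection filter, the brightest probe, age as a block, control morphants or WT alone, the methods' t-test at its threshold and in each of the 7 fits without 1 array (0 to 0), while normexp gave 4 higher (3.81%, against 3.09% of all probes) and WT alone 2 lower. Counts with the brightest probe are of 77 genes, and those under the ceiling limit of 33 probes.

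The median difference of the members moved to -0.13 (75th percentile), -0.13 (under 50% of the ceiling) and -0.18 (both) for LD against DD, to 0.29, 0.20 and 0.32 for the days, and to 0.049 under 50% of the ceiling for the day change in LD against DD. With 75th-percentile scaling it was 0.13 for the arrays labelled *mitfa* morphant (0.0225 to 0.0575 with 1 array left out), -0.27 for control morphants against WT (-0.0332 with the brightest probe, -0.0834 to -0.0309 with 1 array left out) and 0.10 for 50 against 48 hpf. The span of the array medians in the time course became 0.64. With the same scaling, the 172 other probes that reached 50% of the ceiling had medians of -0.10 for LD against DD and 0.24 for the days. In the runs made, no call reversed its direction. LD and DD arrays were paired by sampling time and the days by arrays 24 h apart. At 48 and 50 hpf single arrays were not paired, because the labels give the groups no shared replicate numbers. Every group is present at each age, and age entered the *mitfa* morphant comparison as a block only in an alternative fit. A spot at 50% of the scanner ceiling has 1 log2 unit left above it. Whether the ceiling limited the changes of the 72 of 105 probes that reached 50% was not tested.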
